A study of Mus musculus with 15 samples.

Results

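The PYHIN genes encode the interferon-inducible p200 proteins, among them receptors for DNA in the cytosol. Expression of 9 of them was followed in CD45hi and CD45lo myeloid cells of the mouse brain: AI607873 (now Ifi207), Pydc4 (Ifi213), Pydc3 (Ifi208), Ifi203, Ifi204, Ifi205, Mnda (Ifi211), Mndal and Aim2. They are 9 of the 38924 genes listed in the files, taken by name, and were picked with their expression across the 4 groups of diet and CD45 level already known. Their differences between these groups are therefore given as a description, with a standard error (SE) or an interval but with no p-value. Another 5 PYHIN rows in the files, namely Pyhin1 (Ifi209), Gm4955 (Ifi206), Gm16340 (Ifi203-ps), BC094916 (Ifi214) and Ifi202b, are given beside them.

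The libraries came from male wild type C57BL/6J mice (B6) killed at 12 months of age. The mice were kept on a chow control diet (CD) or were switched at 2 months of age to a western diet (WD), a high-fat and high-sugar feed. Brains were perfused and dissociated, and live CD11b+CD3e- cells were parted by FACS into those with high (CD45hi) or low (CD45lo) surface CD45, the common leukocyte antigen. There were 4 CD CD45hi, 4 CD CD45lo, 3 WD CD45hi and 4 WD CD45lo libraries of poly(A)-selected RNA. CD45lo cells are taken to be resident microglia, whereas the CD45hi gate can hold activated microglia, border macrophages, monocytes, neutrophils and dendritic cells. No transgene or depletion was used in these mice, and both diets and both gates share the strain, sex and age. Nothing in the labels says whether the libraries of a group came from separate sorts, so that the errors below measure the spread between these libraries.

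Most PYHIN proteins carry an N-terminal pyrin domain, which binds other pyrin domains, and a C-terminal HIN domain, which binds double-stranded DNA. AIM2 bound to DNA recruits the adaptor ASC and caspase-1 into an inflammasome, which matures IL-1β and IL-18. IFI204 is usually taken as the mouse counterpart of human IFI16, which signals to type I interferon through STING, and several members are themselves induced by interferon in myeloid cells.

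The start sites of these genes were examined first, because the promoter sequence played no part in choosing them. RefSeq promoter windows on GRCm38.p6, each of 300 bases from 250 before to 50 after the annotated start, were at hand for 8 of the 9 genes, all but Ifi204. The core of the interferon-stimulated response element, the site bound by interferon regulatory factors and ISGF3, was searched on both strands as GAAA, any 2 bases and GAAA. It was present for 7 of the 8 genes, against 3.44% of the 32851 windows of all genes. Aim2 was the member without the core, in a window at chr1:173420354-173420653. The transcripts counted as Aim2 reach upstream of this window, to 173350879, and no window was searched there. Ifi203 has 2 annotated starts and held the core at the second. The 60 bases around the match are shown for these 7 genes, on the strand of the gene, with the match in capitals. They lie at chr1:173741811-173741870 (AI607873), chr1:174031850-174031909 (Ifi205), chr1:173913044-173913103 (Mnda), chr1:173942488-173942547 (Ifi203), chr1:173880184-173880243 (Mndal) and chr1:173599306-173599365 (Pydc4) on the minus strand, and at chr1:173673587-173673646 (Pydc3) on the plus strand.
AI607873: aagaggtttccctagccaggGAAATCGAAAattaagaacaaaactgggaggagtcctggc
Ifi205: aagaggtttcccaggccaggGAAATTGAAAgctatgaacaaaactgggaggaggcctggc
Mnda: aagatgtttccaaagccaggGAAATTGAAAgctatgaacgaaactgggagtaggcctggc
Ifi203: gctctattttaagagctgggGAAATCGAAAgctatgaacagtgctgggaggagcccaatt
Mndal: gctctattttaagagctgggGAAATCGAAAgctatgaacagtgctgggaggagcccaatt
Pydc4: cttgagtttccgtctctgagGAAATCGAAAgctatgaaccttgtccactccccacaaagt
Pydc3: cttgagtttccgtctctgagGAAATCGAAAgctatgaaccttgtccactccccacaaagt

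The 7 sequences fell into 3 types. Pydc4 and Pydc3 were identical over all 60 bases, and so were Ifi203 and Mndal, whereas AI607873, Ifi205 and Mnda shared 50 to 55 of 60 bases with each other. All 7 matches shown held 1 of only 2 versions of the core, with TC or TT between the GAAA repeats. The TC version occurred in 16 of the 32851 windows (0.0487%) and the TT version in 38 (0.116%), the PYHIN windows themselves included. The core began 35 to 73 bases before the annotated start in 6 genes and 134 bases before it in Ifi205, which held another match 24 bases after the start on the opposite strand. Mndal has 2 annotated starts, and the window of its second held a match on the opposite strand, 54 bases before that start. Neither of these further matches was of the TC or TT version. Because these genes arose as copies of each other, the 7 matches are not independent. Of the other PYHIN genes, BC094916 and Gm4955 held the TC version, and the Gm4955 sequence was identical to that of Pydc4 at 59 of 60 bases.
Gm4955: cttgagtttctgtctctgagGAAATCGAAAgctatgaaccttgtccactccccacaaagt
Pyhin1: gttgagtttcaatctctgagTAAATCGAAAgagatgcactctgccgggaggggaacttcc
The window of Pyhin1 held no match, but its nearest run, in capitals, differed from the TC version by the single substitution G1T, counted from the 5′ end of the core. In Ifi202b and Aim2 the nearest run on the strand of the gene had 4 differences.

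The whole windows of AI607873 (chr1:173741760-173742059, minus strand) and Aim2 (chr1:173420354-173420653, plus strand) are shown as those of a member with the core and of the member without it. Capitals mark the interferon core and AGGAAGT, a motif of the ETS family factor PU.1, which governs myeloid genes.
AI607873: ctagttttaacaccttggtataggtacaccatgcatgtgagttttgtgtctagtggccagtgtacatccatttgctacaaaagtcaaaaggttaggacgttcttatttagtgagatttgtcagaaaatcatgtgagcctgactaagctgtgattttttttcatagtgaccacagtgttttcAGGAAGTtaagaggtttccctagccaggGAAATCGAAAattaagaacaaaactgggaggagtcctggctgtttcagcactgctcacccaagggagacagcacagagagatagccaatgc
Aim2: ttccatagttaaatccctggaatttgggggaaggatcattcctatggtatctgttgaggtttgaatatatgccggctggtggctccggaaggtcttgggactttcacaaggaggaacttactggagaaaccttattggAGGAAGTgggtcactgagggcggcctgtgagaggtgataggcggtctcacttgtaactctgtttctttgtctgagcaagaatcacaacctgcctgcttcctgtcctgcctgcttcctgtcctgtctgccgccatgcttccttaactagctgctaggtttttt
AGGAAGT was found for 3 of the 8 members (AI607873, Mnda and Aim2), against 9.35% of all windows. TTCNNNGAA, the interferon-gamma activated sequence, was found for 0 of the 8, against 8.3%. Members are counted as genes here, whereas the percentages are of windows. These matches describe letters in a window and not binding.

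**Figure D1:**
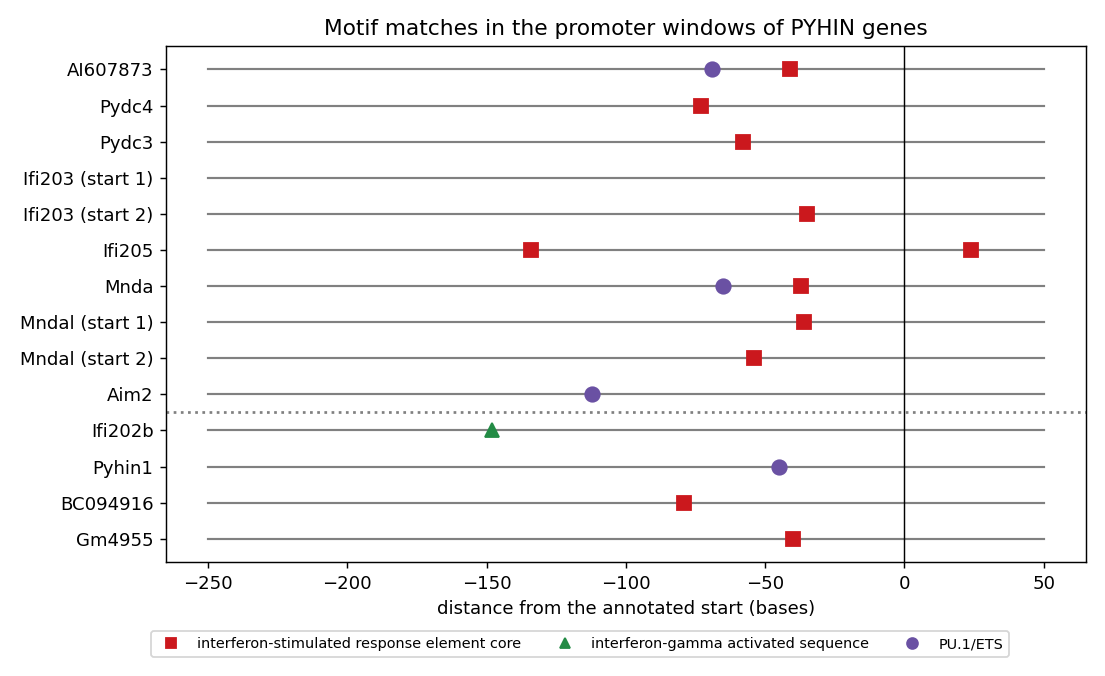
Positions of 3 motifs in the promoter windows of the PYHIN genes, in bases from the annotated start (negative values lie before it); members stand above the dotted line, and genes with more than 1 annotated start have a row for each. The interferon-stimulated response element core (red squares) lies 35 to 73 bases before the start in 6 members and 134 bases before it in Ifi205, and the window of Aim2 has none.

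The 14 PYHIN genes form a single cluster of 680.9 kb on chromosome 1 (mm10, GENCODE M21, chr1:173350879-174031810). Aim2 lies at its proximal end (173350879 to 173466040, plus strand), and Ifi205 at the distal end (174011998 to 174031755, minus strand). Of the members only Aim2 and Pydc3 (173673675 to 173698395) are on the plus strand. The transcript counted as Mndal (173857221 to 173942491) spans Mnda and most of Ifi203 on the same strand and shares 37 exonic bases with Ifi203. It begins 1 base downstream of a RefSeq start of Ifi203, whereas RefSeq places the start of Mndal inside that span, so that the annotations disagree on where Mndal begins. Aim2 overlaps Cadm3 on the opposite strand, with 0 exonic bases in common.

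Reads from near-identical copies could not be assigned to 1 gene with certainty. Of the 75-base windows in the transcripts of Mnda, 63.6% also occurred in another PYHIN gene, and the value was 45.2% for Ifi205, all of it shared with Mnda. It was 20.8% for Ifi204, 14.7% for Mndal, 11.8% for Pydc3, 8.07% for Pydc4, 4.18% for Ifi203 and 1.53% for AI607873. Aim2 shared none, and no member shared a window with a gene outside the family. RSEM divides such reads between the genes. The expected counts of each member were fractional (over 0.01 from a whole number) in 12 to 15 of the 15 libraries. Of all genes tested, 11.6% were fractional in all 15. Aim2, which shared no window, was fractional in 13 libraries and Ifi205 in 12, so that this count did not follow the shared sequence. Because of the shared windows, levels of Ifi205 and Mnda are uncertain one against the other, and sums over similar rows are given below.

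**Figure D2:**
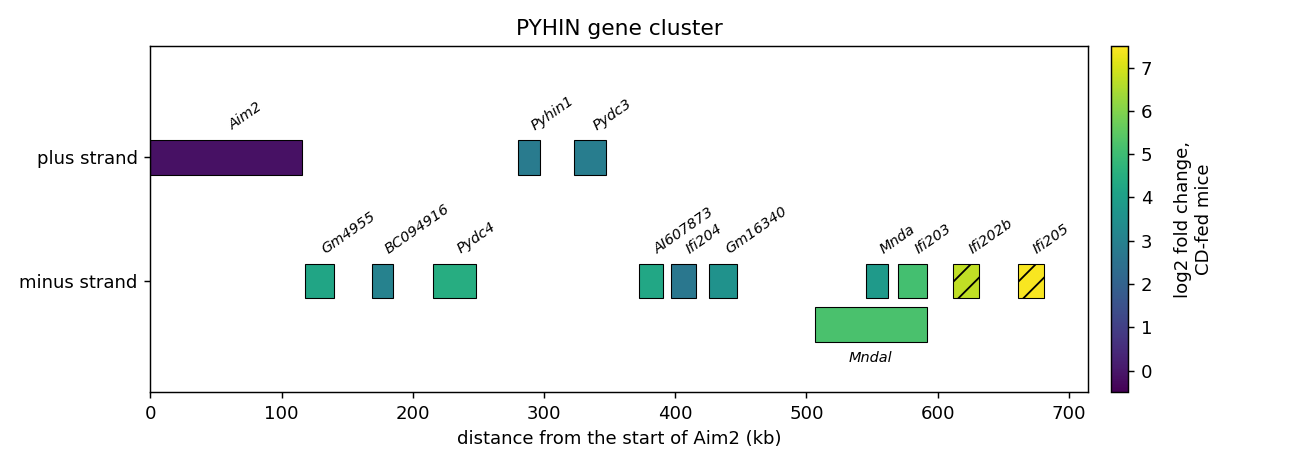
Map of the PYHIN cluster in kb from the start of Aim2, with each box spanning the counted transcripts of a gene and its colour giving the log2 fold change between CD45hi and CD45lo cells of CD-fed mice; Mndal is drawn below the minus strand row because it spans its neighbours. Aim2 (log2 fold change -0.13), at the left end, is the only box near 0, and the hatched boxes (Ifi202b and Ifi205) have all CD45lo libraries at or under 3 counts, so that their fitted value is not exact.

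Each library held 11951412 to 17912272 expected counts, so that 3 counts, the smallest value taken as measured, came to 0.156 to 0.282 cpm (CPM, counts scaled to a common library total after TMM normalization). Summed over 8 microglia markers, CD45lo libraries held 12620 to 16040 cpm and CD45hi libraries 5915 to 7240 cpm. The 6 classical monocyte markers summed to 533 to 985 cpm in CD45hi and 17.7 to 113 cpm in CD45lo libraries, the 6 border macrophage markers to 620 to 2349 against 53.8 to 206 cpm, and the 8 neutrophil markers to 700 to 2755 against 43.7 to 263 cpm. The 6 patrolling monocyte markers gave 264 to 782 against 9.94 to 21.95 cpm and the 7 dendritic cell markers 122 to 298 against 26.4 to 43.9 cpm. The 6 NK cell markers summed to 12.1 to 140 cpm in CD45hi and 0 to 0.742 cpm in CD45lo libraries. T cell markers gave 0.470 to 83.6 against 0.223 to 2.31 cpm, which overlapped. B cell markers gave 7.73 to 27.8 against 3.41 to 13.1 cpm, which also overlapped. The 10 markers of neurons, other glia and vessels summed to 54.3 to 171 cpm. Of the 7 T cell markers, Trbc2 and, in 3 of the 4 groups, Trac were at 0 in every library. The 1 T cell marker that passed the filter had log2 fold changes of 5.56 (CD) and 5.28 (WD) between CD45hi and CD45lo cells. Every CD45hi library thus held more of the monocyte, macrophage, neutrophil, dendritic and NK cell markers than every CD45lo library, and less of the microglia markers. The part of this makeup in the PYHIN results was not tested. The fourth CD CD45hi and the first WD CD45hi library lay apart from the other CD45hi libraries in an earlier look at all genes, and results are given with and without them.

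Whether PYHIN transcripts differ between the cell populations was asked within each diet. All members but Aim2 were higher in CD45hi than in CD45lo cells on both diets. In CD-fed mice 7 of the 9 members were called higher (edgeR, glmTreat against a 1.5-fold change, false discovery rate (FDR) under 0.05), as were 3.39% of the 14967 genes tested, and none lower, as were 0.588% (either way 3.98%). In WD-fed mice 7 of 9 were called higher, as were 4.01% of all genes, and none lower, as were 1.17% (either way 5.18%). These counts repeat what the genes were picked on, and nothing is read from them. The median log2 fold change of the 9 members was 4.25 in CD-fed and 3.89 in WD-fed mice, beside 0.036 and 0 over all genes. A gene at the same level per cell in fewer cells and a gene at a lower level in all cells cannot be told apart in such bulk libraries.

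Ifi203, a nuclear p200 protein, had the most reads of the family in CD45hi cells. In CD-fed mice it was at 352, 502.5, 315 and 414 cpm in the 4 CD45hi libraries and at 5.71, 9.08, 9.77 and 20.9 cpm in the 4 CD45lo libraries. In WD-fed mice it was at 313, 325 and 290.0 cpm in CD45hi and at 9.97, 34.2, 18.5 and 17.1 cpm in CD45lo libraries. Every CD45hi library thus lay far above every CD45lo library. The log2 fold change was 5.12 (SE 0.415, 34.8-fold) in CD-fed and 3.96 (SE 0.403, 15.5-fold) in WD-fed mice.

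AI607873 had the smallest SE of the called members on both diets. Its CD45hi libraries held 228, 221, 223 and 269 cpm in CD-fed and 196, 284 and 265 cpm in WD-fed mice. Its CD45lo libraries held 12.1, 10.01, 12.8 and 14.5 cpm in CD-fed and 17.9, 27.4, 11.2 and 10.8 cpm in WD-fed mice. The log2 fold change was 4.25 (SE 0.291, 19-fold) and 3.89 (SE 0.293, 14.8-fold).

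Mndal and Mnda, are named after the human myeloid nuclear differentiation antigen and share sequence. Mndal was at 92.9, 228, 185 and 258 cpm in CD CD45hi and at 236, 273 and 167 cpm in WD CD45hi libraries. In CD45lo libraries it was at 2.29, 4.83, 4.43 and 8.97 cpm in CD-fed and at 3.08, 16.1, 4.89 and 1.74 cpm in WD-fed mice. Its log2 fold change was 5.22 (SE 0.62) in CD-fed and 5.13 (SE 0.63) in WD-fed mice, which makes 37.2-fold and 35-fold. Mnda ranged from 44.95 to 101 cpm in CD45hi and from 1.05 to 7.57 cpm in CD45lo libraries, with log2 fold changes of 3.83 (SE 0.546) and 4.61 (SE 0.581). Summing the rows of both genes gave 4.78 (SE 0.523) and 4.98 (SE 0.539).

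Ifi204 had the smallest difference of the called members on both diets. It was at 137, 171, 96.4 and 172 cpm in CD CD45hi and at 225, 175 and 263 cpm in WD CD45hi libraries. CD45lo libraries held 17.0, 18.6, 21.8 and 33.5 cpm in CD-fed and 17.6, 36.4, 40.7 and 27.2 cpm in WD-fed mice. The log2 fold change was 2.66 (SE 0.302, 6.33-fold) and 2.86 (SE 0.315, 7.24-fold). The groups did not overlap on either diet.

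Ifi205, another p200 protein, was barely detected in CD45lo cells and ranged widely in CD45hi cells. It was at 3.15, 20.04, 0.792 and 1.42 cpm in CD CD45hi and at 8.37, 26.8 and 3.37 cpm in WD CD45hi libraries. In CD CD45lo cells it had 0 counts in 3 libraries and 2.18 in the fourth, whereas WD CD45lo libraries had 3.39 to 9.82 counts. The mean of the CD CD45hi libraries, 6.35 cpm, was therefore at least 37.0-fold higher, computed against 3 counts per library (0.172 cpm). That mean rests largely on the second library, at 20.04 cpm, and the median was 2.28 cpm. In WD-fed mice the log2 fold change was 4.98 (SE 1.27). Summing Ifi204, Ifi205 and Mnda, whose sequences overlap, gave 2.95 (SE 0.285) in CD-fed and 3.21 (SE 0.297) in WD-fed mice.

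Pydc4 and Pydc3 are named after their pyrin domain. Pydc4 was at 58.5, 95.2, 163 and 159.5 cpm in CD CD45hi and at 118, 77.6 and 110.1 cpm in WD CD45hi libraries. CD45lo libraries held 5.88, 5.24, 2.70 and 7.55 cpm in CD-fed and 8.66, 11.8, 16.3 and 7.73 cpm in WD-fed mice. Its log2 fold change was 4.47 (SE 0.419, 22.2-fold) and 3.19 (SE 0.407, 9.15-fold). Pydc3 was at 5.83 to 19.2 cpm in CD45hi and 0.379 to 4.82 cpm in CD45lo libraries. Its groups did not overlap, but its log2 fold changes of 2.87 (SE 0.821) and 2.60 (SE 0.846) were not called against the 1.5-fold threshold.

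Aim2, the receptor of the DNA-sensing inflammasome, was at the same order of magnitude in every library. It was at 136, 98.9, 183 and 225 cpm in CD CD45hi and at 156, 154, 213 and 182 cpm in CD CD45lo libraries. In WD-fed mice it was at 137, 160.5 and 147 cpm in CD45hi and at 167, 180.5, 187 and 132 cpm in CD45lo libraries. The groups overlapped on both diets in cpm. The log2 fold change was -0.13 (95% interval -0.61 to 0.35) in CD-fed and -0.17 (-0.69 to 0.35) in WD-fed mice. On the TPM scale the WD-fed groups of Aim2 did not overlap, at 118, 208 and 202 TPM in CD45hi and 332, 333.5, 302 and 232 TPM in CD45lo libraries. The difference of log2(TPM + 1) by limma-trend was -0.46 in CD-fed and -0.79 in WD-fed mice, without a call on either diet, so that its size depended on the scale. In cpm Aim2 was the only member whose CD45hi and CD45lo libraries overlapped. All 8 others were higher in every CD45hi than in every CD45lo library on both diets, as were 4.47% of all genes (in CD-fed mice alone 8.26% were). For comparison, 2.04% of all genes were lower in every CD45hi library on both diets, 8.22% in CD-fed and 13.4% in WD-fed mice.

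**Figure D3:**
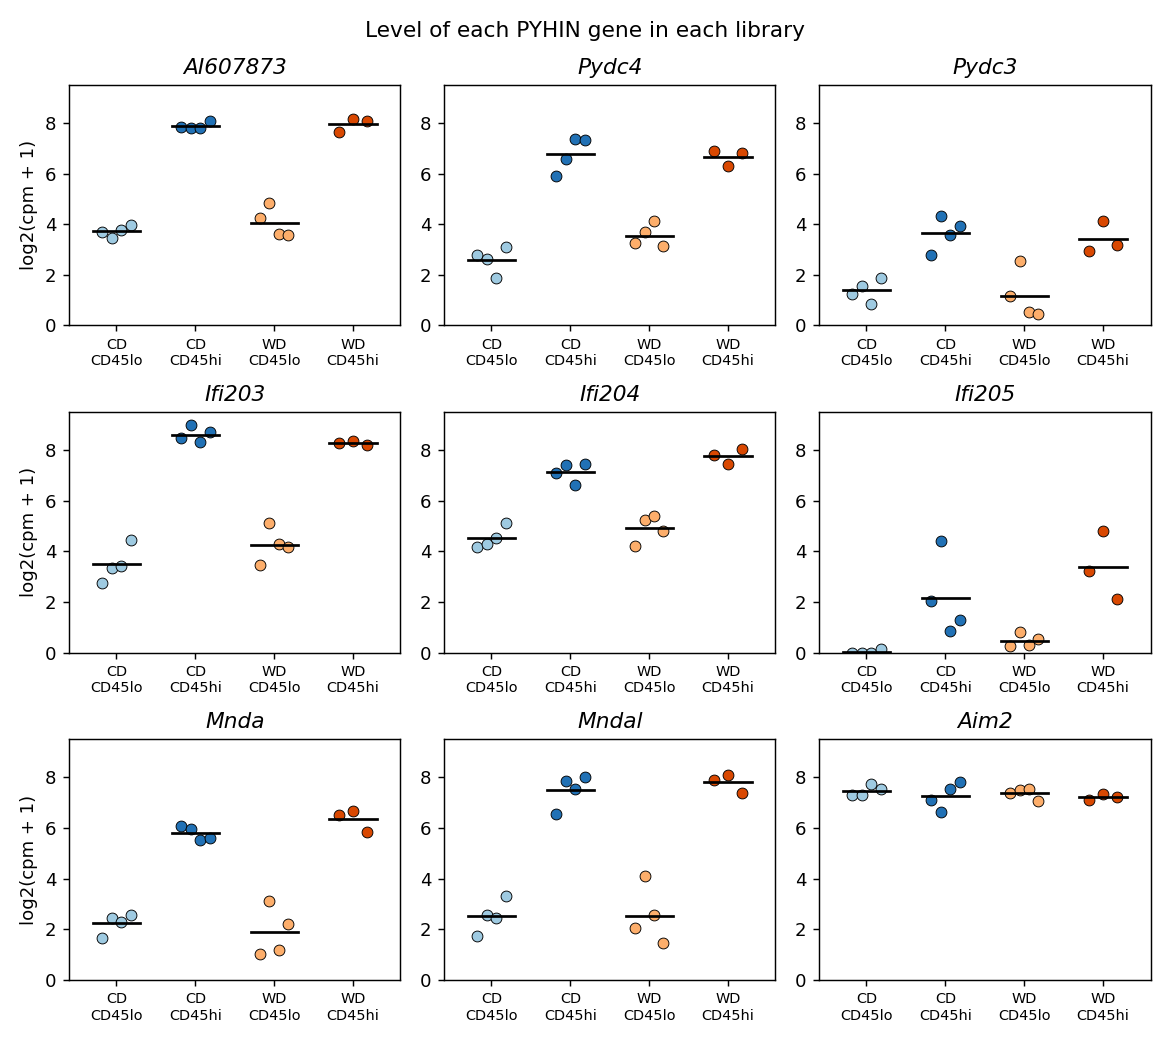
Level of each member as log2(cpm + 1) in each library (points) with the group mean (line), by diet and CD45 level. The CD45hi points lie above all CD45lo points of the same diet for 8 genes, and the CD45hi and CD45lo points of Aim2 overlap on this scale.

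**Figure D4:**
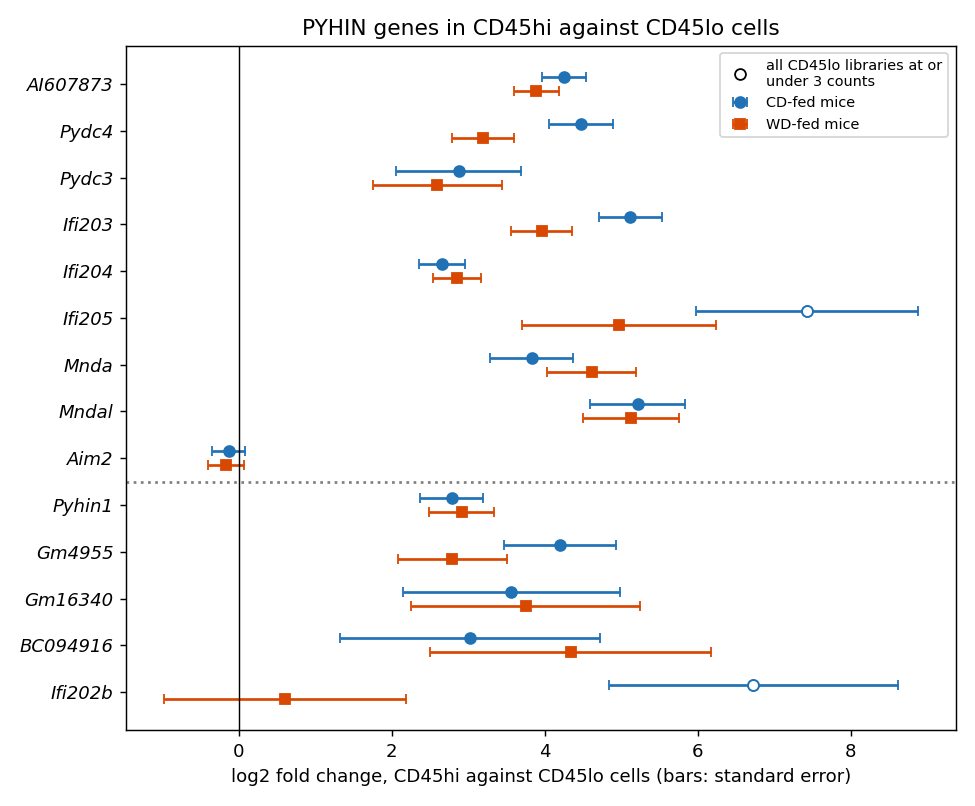
Log2 fold change between CD45hi and CD45lo cells with its standard error in CD-fed (circles) and WD-fed mice (squares), for the 9 members (above the dotted line) and 5 other PYHIN rows. All but Aim2 (-0.13 and -0.17) lie to the right of 0, and open circles mark fitted values of genes whose CD CD45lo libraries were all at or under 3 counts.

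Levels of different genes were compared as TPM, the share of all transcripts of a library after division by length. In CD45lo cells Aim2 made up 81.7% ± 4.23 (SD, n = 4) of all PYHIN transcripts in CD-fed and 77.2% ± 5.28 (SD, n = 4) in WD-fed mice, and Ifi204 came next with 5.82% and 7.14%. In CD45hi cells no gene dominated. Aim2 made up 21.4% ± 7.07 (SD, n = 4) in CD-fed mice, followed by Ifi203 (18.4%), Mndal (14.5%) and Pydc4 (11.5%). In WD-fed mice it made up 18.3% ± 5.29 (SD, n = 3), followed by Mndal (17.3%), Ifi204 (14.4%) and Ifi203 (13.9%). The family as a whole came to 1015 ± 190.5 TPM (SD, n = 4) in CD CD45hi and 967 ± 21.6 TPM (SD, n = 3) in WD CD45hi cells, against 349 ± 55.3 TPM (SD, n = 4) in CD CD45lo and 390 ± 69.0 TPM (SD, n = 4) in WD CD45lo cells.

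The summed family does not depend on how RSEM divided reads between copies. In counts, the log2 fold change of the sum of all 14 PYHIN rows was 2.53 (SE 0.173) in CD-fed and 2.44 (SE 0.18) in WD-fed mice. Without Aim2 the sum was at 1009 to 1532 cpm in CD45hi and 55.8 to 155 cpm in CD45lo libraries, and its log2 fold change was 4.11 (SE 0.272) and 3.67 (SE 0.274).

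**Figure D5:**
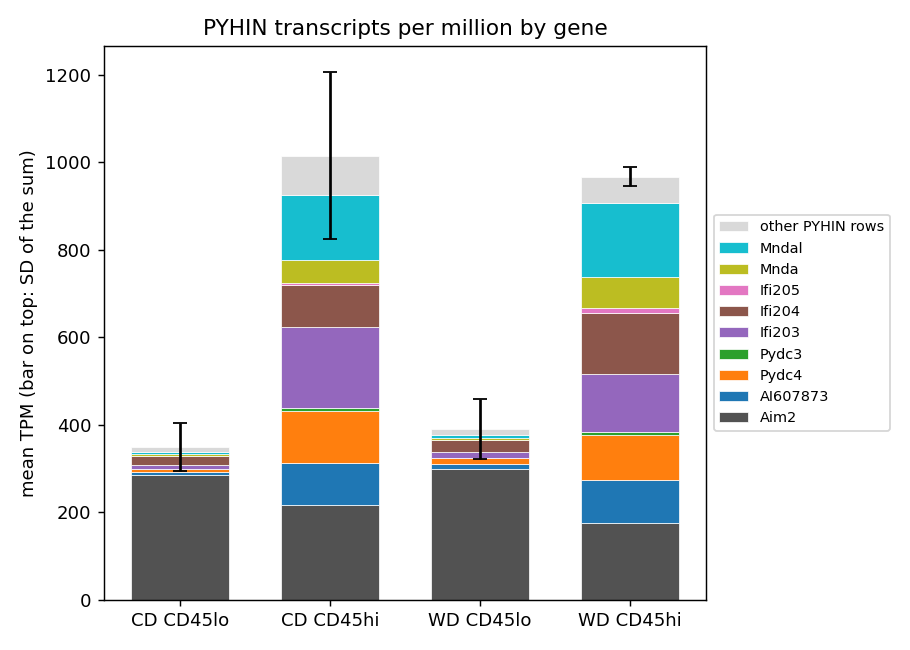
Mean TPM of each PYHIN gene stacked by group, with the SD of the sum over the 3 or 4 libraries. Aim2 (dark grey) fills most of the CD45lo bars (349 and 390 TPM in all) and a smaller share of the CD45hi bars (1015 and 967 TPM).

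Whether the WD changed PYHIN transcripts was asked within each cell population. None of the 9 members was called in CD45hi cells (edgeR glmQLFTest), where 0.254% of all genes were (0.0601% higher and 0.194% lower), and none had an unadjusted p under 0.05, which 2628 of all genes (17.6%) had. DESeq2, which called 1030 genes, and limma-voom also called 0 members. Log2 fold changes ran from -0.35 (Ifi203) to 1.02 (Ifi205). The summed family differed by 0.02 (SE 0.177). The 3 WD libraries of Ifi204 (175 to 263 cpm) all lay above the 4 CD libraries (96.4 to 172 cpm), with means of 221 ± 44.2 (SD, n = 3) and 144 ± 35.5 cpm (SD, n = 4). Such an order without overlap was seen in 2.58% of all genes (3.19% in the other direction), and the log2 fold change was 0.62 (95% interval -0.05 to 1.29).

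In CD45lo cells 0 members were called by edgeR, DESeq2 or limma-voom, and edgeR called 0 (0%) of all genes, against 4 by DESeq2. At an unadjusted p under 0.05 there were 3 members and 123 of all genes (0.822%). The members were picked with these values known, so that nothing is read from this count. The 4 WD libraries of Pydc4 (7.73 to 16.3 cpm) all lay above its 4 CD libraries (2.70 to 7.55 cpm), with a log2 fold change of 1.06 (95% interval 0.24 to 1.88). Ifi205 also had WD above CD libraries without overlap, at 3.39 to 9.82 against 0 to 2.18 counts, which is too few for a fold. WD libraries were higher without overlap for 1.13% of all genes and lower for 1.29%. Ifi203 had 5.71 to 20.9 cpm in CD and 9.97 to 34.2 cpm in WD libraries, which overlapped, with a log2 fold change of 0.81 (95% interval 0.02 to 1.60).

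The second WD CD45lo library was the highest of all 8 CD45lo libraries for 6 of the 9 members (AI607873, Pydc3, Ifi203, Ifi205, Mnda and Mndal) and above the median for all 9. It also held the largest sum of classical monocyte markers of the CD45lo libraries, 113 cpm against 17.7 to 97.8 cpm in the other 7. It did not hold the largest sum of the other myeloid lists, which was in a CD CD45lo library for patrolling monocyte (21.95 against 14.5 cpm in this one), neutrophil (263 against 89.2 cpm), border macrophage (205.5 against 117 cpm) and dendritic cell markers (43.9 against 26.7 cpm). The fourth CD CD45lo library came next in the members and the classical monocyte markers, with 7 of 9 members above the median and 97.8 cpm of these markers. The part of these markers in the result was not tested. Without the second WD CD45lo library, the WD against CD log2 fold change in CD45lo cells was 1.03 for Pydc4, 0.42 for Ifi203 and 0.11 for AI607873, in place of 1.06, 0.81 and 0.44. The largest shift was that of Pydc3, from 0.015 to -1.29, followed by Mndal, from 0.33 to -0.65, and Mnda, from -0.19 to -0.96. The value of Pydc4 was nearly as large without this library, and that of Ifi203 was not. Between the populations of WD-fed mice, Pydc3 was then called higher (3.91) and Ifi205 was no longer called (5.44), and in CD-fed mice, whose fit shares the estimate of spread, 8 members were called in place of 7. Leaving out the second WD CD45hi library, or any 1 of the other WD CD45lo libraries, gave 6 called members in WD-fed mice.

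The difference between the populations was also compared between the diets, as the interaction of diet and CD45 level. None of the members was called (0.00668% of all genes were), 2 had an unadjusted p under 0.05, which 1515 of all genes (10.1%) had, and DESeq2, which called 188 genes, and limma-voom called 0 members. The fitted difference was smaller in WD-fed mice for Pydc4, by 1.28 on the log2 scale (interaction -1.28, 95% interval -2.47 to -0.09), and for Ifi203 (-1.16, -2.31 to -0.02). Without the second WD CD45lo library the values were -1.25 and -0.77. Neither gene was called, and the members were picked with these values known, so that nothing is read from the 2 intervals. For Aim2 the interaction was -0.04 (-0.74 to 0.67), and for AI607873 -0.36 (-1.19 to 0.47).

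Leaving out the fourth CD CD45hi and the first WD CD45hi library, a choice made after seeing the data, gave 7 of 9 members called higher on each diet and 0 called between the diets. The log2 fold change of AI607873 was then 4.18 in CD-fed and 4.03 in WD-fed mice, that of Ifi203 5.10 and 3.95, and that of Aim2 -0.34 and -0.12. Between the diets in CD45hi cells Ifi204 was at 0.70 and Aim2 at 0.14.

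The other 5 PYHIN rows were tested in the same way. Like the members, these rows and the gene lists below were chosen with earlier results of these data known. Their FDRs are therefore given as a description and not as fresh tests. Pyhin1, a nuclear p200 protein, was higher in CD45hi cells by 2.78 (SE 0.409) in CD-fed and 2.91 (SE 0.427) in WD-fed mice on the log2 scale, with edgeR FDRs of 0.000822 and 0.000742. Its CD45hi libraries ranged from 35.2 to 107 cpm and its CD45lo libraries from 4.43 to 11.8 cpm. Gm4955 was higher by 4.20 (SE 0.727, FDR 0.00226) and 2.79 (SE 0.712, FDR 0.0405). In WD-fed mice this call was lost in 7 of 15 fits without 1 library (FDR 0.0194 to 0.115), namely without the second CD CD45lo, the first or the third WD CD45hi or any WD CD45lo library, and also without the fourth CD CD45hi and first WD CD45hi libraries together. Gm16340, BC094916 and Ifi202b were not called. Ifi202b, a p200 protein without a pyrin domain, was at 1.33 to 3.96 cpm in the 4 CD CD45hi libraries and at or under 3 counts in every CD CD45lo library. In WD-fed mice it was at 0 to 0.872 cpm in CD45hi and 0 to 0.909 cpm in CD45lo libraries, which overlapped, and its WD CD45hi libraries all lay below its CD CD45hi libraries. Summing Pydc3, Pydc4 and Gm4955, whose sequences overlap, gave log2 fold changes of 4.22 (SE 0.434) and 3.07 (SE 0.426).

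Partners of AIM2 were taken from a list of inflammasome genes. Of its 16 genes 2 rose in CD45hi cells, the same pair on both diets, and none fell. Of all genes 3.39% were called higher in CD-fed and 4.01% in WD-fed mice, and 0.588% and 1.17% lower. Il1b, which encodes the IL-1β precursor, rose by 5.86 (SE 0.404, edgeR FDR 1.26e-07) in CD-fed and 5.91 (SE 0.414, FDR 2.1e-07) in WD-fed mice on the log2 scale. Nlrc4, a component of a different inflammasome, rose by 5.33 (SE 1.18, FDR 0.0144) and 6.02 (SE 1.26, FDR 0.00841). Its CD CD45hi libraries ranged from 3.23 to 98.75 cpm, and its call in CD-fed mice was lost without the fourth CD CD45hi, the first CD CD45lo or the third CD CD45lo library (FDR up to 0.0658). The adaptor Pycard (ASC) had log2 fold changes of 0.29 (SE 0.264) and -0.73 (SE 0.29), Casp1 0.72 (SE 0.245) and 0.19 (SE 0.262), Gsdmd 0.0044 (SE 0.209) and -0.22 (SE 0.227), and none was called. The median over the 16 genes was 0.25 in CD-fed and 0.19 in WD-fed mice, beside 0.036 and 0 over all genes.

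Of 19 genes of other DNA-sensing routes 2 were higher on each diet and none lower, beside 3.39% (CD) and 4.01% (WD) of all genes higher. Samhd1, a dNTP hydrolase, rose by 1.52 (SE 0.15, edgeR FDR 0.000101) and 1.61 (SE 0.158, FDR 8.25e-05). Zbp1, a sensor of Z-form nucleic acids, rose by 3.73 (SE 0.63, FDR 0.00196) in WD-fed mice. In CD-fed mice its value was 2.34 (SE 0.578, FDR 0.046), a call lost in 9 of 15 fits without 1 library (FDR 0.0287 to 0.15), namely without the first, the second or the third CD CD45hi, any CD CD45lo, or the first or the third WD CD45lo library. The cytosolic DNA sensor cGAS (Mb21d1) had -0.33 (SE 0.347) and 0.26 (SE 0.373) and its downstream adaptor STING (Tmem173) -0.68 (SE 0.256) and -0.78 (SE 0.281), and neither was called. The list's median was -0.15 in CD-fed and 0.26 in WD-fed mice.

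Of 22 interferon-stimulated genes 11 rose in CD45hi cells of CD-fed mice and 11 in WD-fed mice, with medians of 2.17 and 2.44. Over all genes 3.39% and 4.01% were called higher, and the medians were 0.036 and 0. Oas2, a sensor of double-stranded RNA, rose by 3.98 (SE 0.369, edgeR FDR 5.31e-06) and 3.94 (SE 0.379, FDR 8.81e-06), Ifitm3, which blocks virus entry, by 3.79 (SE 0.355, FDR 5.67e-06) and 4.11 (SE 0.37, FDR 3.75e-06), and Oasl2 by 2.90 (SE 0.328, FDR 6.71e-05) and 3.15 (SE 0.343, FDR 3.79e-05). Of 16 receptors and factors of interferon signalling only Irf7, the interferon regulatory factor that amplifies type I interferon, was called, and it rose by 2.61 (SE 0.538, FDR 0.0133) and 3.05 (SE 0.565, FDR 0.00492). In CD-fed mice this call was lost without the first or the fourth CD CD45lo library (FDR up to 0.0544). Of all 88 genes on these lists and of the neighbours given next, 0 were called between the diets in either population by edgeR, with 18 in CD45hi cells (20.5%, beside 17.6% of all genes) and 3 in CD45lo cells (3.41%, beside 0.822%) at an unadjusted p under 0.05.

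Of 10 tested chromosome 1 neighbours of the cluster, 1 rose in CD45hi cells on each diet, beside 3.39% (CD) and 4.01% (WD) of all genes. A different gene was called each time. In CD-fed mice it was Tagln2, an actin-binding protein, by 1.89 (SE 0.405, edgeR FDR 0.0272), a call lost without the first CD CD45hi or the first, the second or the third CD CD45lo library. In WD-fed mice it was Cadm3, an adhesion protein that overlaps Aim2 on the other strand (FDR 0.0196), at 17.5 ± 5.19 cpm (SD, n = 3) in CD45hi cells and at or under 3 counts in every CD45lo library, at least 86.2-fold. This call was lost without any 1 of the WD CD45lo libraries (FDR up to 0.0725). The library kit does not mark strand, but the exons of Cadm3 and Aim2 do not overlap.

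The gene outside the family with the most similar course over the 15 libraries was sought for each member among the 8244 genes with a mean of at least 10 cpm, by the root mean square difference of centred log2 cpm. For AI607873 it was Oas2, at 0.256 (nearest member Ifi203, 0.596). For Aim2 it was Ncstn, a gamma-secretase subunit, at 0.112. The others were Siglec1, the sialoadhesin of macrophages, for Pydc4 (0.528), Vim, vimentin, for Pydc3 (0.66), Ahnak for Ifi203 (0.286), Clec7a, the beta-glucan receptor dectin-1, for Ifi204 (0.381), Cfp, properdin, for Ifi205 (1.08), Il1rn, the IL-1 receptor antagonist, for Mnda (0.553) and Tlr8, an endosomal RNA sensor, for Mndal (0.405). Aim2 lay farthest from its nearest member (Ifi204, 1.55). For every member the nearest outside gene was closer than the nearest other member, but it was sought among far more genes.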

How the data were processed

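Poly(A)-selected RNA of sorted brain myeloid cells was sequenced by the authors as paired reads of 75 bases, trimmed, and quantified with RSEM 1.2.12 on mm10 (the submitters' processing notes). The annotation release and the use of strand in counting are not given in the sources used here, nor which library ran on which sequencer. The deposited files give, for 38924 genes per library, an expected count (an estimated count, not normalized), TPM and FPKM, of which the deposited FPKM was not used. No values were pooled.

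Titles gave the diet and CD45 group. No 2 replicates were alike within sampling noise. After rounding, genes reaching 1 cpm in 2 or more libraries entered (14967), and all 15 libraries fitted in 1 model of 4 groups after TMM normalization (edgeR 4.0.16, R 4.3.3, legacy quasi-likelihood, 11 residual degrees of freedom). CD45hi and CD45lo cells were compared with glmTreat at 1.5-fold, diets and the interaction with glmQLFTest, with Benjamini-Hochberg FDRs over all genes tested. The filter, TMM and quasi-likelihood test follow the study's methods, which name a 1.5-fold limit for the populations but not how it was applied, and glmTreat is the choice made here. SEs are the log2 fold change divided by the square root of F. Deposited TPM served for comparisons between genes. The fit was tested on simulated data. Alternatives were DESeq2 1.42.0, limma-voom and limma-trend (limma 3.58.1), other filters, scalings and quasi-likelihood forms, unrounded counts, fits of 2 groups, replicate blocks and leaving out libraries.

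The members and gene lists were chosen with earlier results of these data known. All members and other PYHIN rows are named. Of each list up to 3 called genes with the lowest FDR were named by rule, and Pycard, Casp1, Gsdmd, Mb21d1 and Tmem173 were added by hand after their values were seen. Of the identifiers, 37607 are in GENCODE M21. Replicate numbers in the titles, and a set of animal numbers in the file names, could pair CD45hi with CD45lo libraries. Neither was used in the main fit. Correlations of deviations between same-numbered libraries were -0.022 to 0.069, which does not settle whether such libraries came from the same animal.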

Additional observations from a re-analysis of the deposited data

Results flagged for a closer look

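In 12 of the 75 groups of 4 libraries examined for a library that stood apart, the highest or lowest library lay further from its nearest neighbour, as a share of the group's range, than Dixon's critical value for 4 samples. For continuous values chance alone marks about 1 in 20 groups. Where only 1 library is above 0 the ratio is 1.0 by construction, so that the 12 groups are not set against this rate. Among the members, AI607873 was high in the fourth CD CD45hi library (269 cpm, others 221 to 228 cpm, ratio 0.87). Ifi205 was high in the second CD CD45hi library (20.04 cpm, others 0.792 to 3.15 cpm, ratio 0.878) and in the fourth CD CD45lo library (0.114 cpm, others 0, ratio 1.0), the latter under 3 counts.

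Of the other PYHIN rows, Ifi202b was high in the fourth CD CD45lo library (0.0567 cpm from 1 count, others 0, ratio 1.0). It was also high in the fourth WD CD45lo library (0.909 cpm, others 0 to 0.0742 cpm, ratio 0.918). BC094916 was low in the fourth WD CD45lo library (0 cpm, others 0.329 to 0.393 cpm, ratio 0.837). Of the list genes, Nlrc4 was high in the second CD CD45lo library (2.70 cpm, others 0.0567 to 0.369 cpm, ratio 0.882), and Samhd1 low in the third CD CD45hi library (396.5 cpm, others 481 to 485 cpm, ratio 0.957). Oasl2 was high in the first CD CD45lo library (32.1 cpm, others 12.4 to 14.0 cpm, ratio 0.919). Cadm3 was high in the fourth CD CD45lo (3.41 cpm, others 0 to 0.471 cpm, ratio 0.862) and the second WD CD45lo library (0.0742 cpm from 1 count, others 0, ratio 1.0). Tagln2 was high in the first CD CD45hi library (119.5 cpm, others 63.2 to 66.4 cpm, ratio 0.942).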

How the results depend on the processing

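The count of members called between CD45hi and CD45lo cells stayed between 6 and 8 of 9 on each diet under all alternatives, and 0 members were called by diet or by the interaction. Of 416 recomputed summary values, leaving aside those without 1 library, 355 stayed within 1.5 times or 1 SD and 61 moved. The log2 fold change of Aim2 ran from -0.46 to 0.04 in CD-fed and from -0.79 to -0.11 in WD-fed mice over the alternatives. The causes of the changes below were not tested. Under glmQLFTest, with 1.5-fold applied only to the calls, 1162 (CD) and 1335 (WD) of all genes were called between the populations, with 6 (5 higher, 1 lower) and 3 interferon signalling genes, 2 and 2 chromosome 1 neighbours and, in WD-fed mice, 4 DNA-sensing genes (3 higher, 1 lower). Limma-trend on log2(TPM + 1) gave 396 genes in CD-fed mice, with 1 inflammasome, 0 DNA-sensing, 0 signalling, 6 interferon-stimulated and 0 neighbouring genes, in WD-fed mice 1 other PYHIN, 0 signalling and 6 stimulated genes, and 95 genes by diet in CD45hi cells. The edgeR 4 quasi-likelihood form called 4 other PYHIN and 2 neighbouring genes (CD), 1 other PYHIN gene (WD), 252 genes by diet in CD45hi cells and 0 by interaction. Limma-voom called 1 inflammasome, 1 DNA-sensing, 0 signalling and 0 neighbouring genes (CD), 1 other PYHIN gene (WD) and 0 by interaction. Without the low-count filter 1 DNA-sensing gene was called (CD). DESeq2 called 1030 genes by diet in CD45hi cells (2 inflammasome, 1 DNA-sensing, 2 signalling), 4 in CD45lo cells and 188 by interaction. Fitting the compared groups alone gave 0 genes by diet in CD45hi cells.

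A replicate block by title number gave 1 inflammasome and 1 DNA-sensing gene (CD), 2 genes by diet in CD45hi cells and 0 by interaction. A replicate block by animal number gave 1 inflammasome, 1 DNA-sensing, 0 signalling and 7 stimulated genes (CD), and 353 of all genes, 1 other PYHIN, 0 signalling and 5 stimulated genes (WD), and 0 by interaction. Neither numbering was used as a pairing in the main fit. Without the fourth CD CD45hi and first WD CD45hi libraries, 1 inflammasome gene (CD), 1 other PYHIN, 5 DNA-sensing (2 higher and 3 lower) and 2 neighbouring genes and 1036 of all genes (WD), 290 genes by diet in CD45hi cells (1 DNA-sensing, 1 signalling) and 3 by interaction were called. The PYHIN sum without Aim2 gave 4.11, 3.67, 0.48 (diet, CD45lo) and -0.44 (interaction). Leaving out 1 library gave 412 to 705 (CD) and 513 to 920 (WD) genes between populations, 1 to 286 by diet in CD45hi cells (1 without the second WD CD45lo and 286 without the second WD CD45hi library) and 0 to 6 by interaction. Ranges for lists were 1 to 2 inflammasome, 0 to 1 neighbouring, 0 to 1 signalling and 1 to 2 DNA-sensing genes (CD), 0 to 2 neighbouring, 1 to 2 signalling, 7 to 13 stimulated, 2 to 4 DNA-sensing and 1 to 2 other PYHIN genes (WD), and, by diet in CD45hi cells, 0 to 1 neighbouring and 0 to 2 signalling genes. Without the second WD CD45lo library, the WD-fed log2 fold change was 3.91 for Pydc3, 5.38 for Mnda and 6.11 for Mndal. Depth limited Ifi205 and Ifi202b, at or under 3 counts in all CD CD45lo libraries.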
